A study of Mus musculus with 9 samples.

Results

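The 131 circRNAs described here derive from 71 mouse genes of ubiquitin ligases and deubiquitinases, among 5281 circRNAs counted in sorted cells of the developing cortex. They were chosen by the symbol of the parental gene, which had to start with Usp, Ubr, Herc, Cul, Rnf, Fbxw, Fbxo or Fbxl followed by a digit, and no measured value entered the choice. By family they comprised 34 circRNAs of 18 Usp genes, 14 of 6 Ubr genes, 7 of 4 Herc genes, 7 of 4 Cul genes, 42 of 22 Rnf genes and 27 of 17 F-box genes. The study sorted the lateral cortex of C57BL/6 embryos at embryonic day 14.5 by 2 reporters, an RFP driven by Btg2, a gene switched on in progenitors committed to neurogenesis, and a GFP driven by Tubb3, a neuronal tubulin gene. Proliferative progenitors (PP) carried neither reporter, differentiative progenitors (DP) carried RFP without GFP, and newborn neurons (N) carried GFP, with 3 libraries each. The pregnant mice were double heterozygous for the reporters, and whether every embryo carried both alleles was not stated in the paper. PP were defined only by the absence of both signals. Total RNA was digested with RNase R, an exonuclease that degrades linear RNA, before strand-specific sequencing.

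Ubiquitin is attached to proteins by a relay of activating, conjugating and ligating enzymes, in which the E3 ligase selects the protein to be tagged, and deubiquitinases remove the tag. Usp genes encode deubiquitinases, whereas Ubr, Herc and Rnf genes encode ligases or ligase-like proteins with a UBR box, a HECT domain or a RING finger, respectively. Cullins are scaffolds of multi-subunit ligases, and F-box proteins are the exchangeable receptors that bring substrates to the cullin scaffold of the SCF complex. A circRNA forms when the end of an exon is joined to the start of the same or an upstream exon, which creates a back-splice junction that the linear mRNA does not contain.

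The junctions of 10 circRNAs that differed between cell types are shown because these 40 bases distinguish each circle from the mRNA of its gene. The study summed reads over the expressed exons and introns of each circRNA, so the counts given below are not specific to the junction. Lower case marks the last 20 bases of the closing exon, and capitals mark the first 20 bases of the opening exon.
Usp3 circ_006718: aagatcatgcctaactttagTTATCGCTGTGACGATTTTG
Ubr7 circ_001233: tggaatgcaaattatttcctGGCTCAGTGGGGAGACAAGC
Ubr7 circ_001234: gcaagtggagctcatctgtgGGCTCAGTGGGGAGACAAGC
Ubr7 circ_001235: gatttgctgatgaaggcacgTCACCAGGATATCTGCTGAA
Herc2 circ_005934: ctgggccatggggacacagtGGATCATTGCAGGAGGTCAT
Herc2 circ_005935: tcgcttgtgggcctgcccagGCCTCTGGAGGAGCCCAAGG
Herc3 circ_005506: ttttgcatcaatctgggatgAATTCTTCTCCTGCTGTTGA
Fbxo10 circ_004597: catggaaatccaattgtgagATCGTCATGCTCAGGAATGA
Fbxo31 circ_006109: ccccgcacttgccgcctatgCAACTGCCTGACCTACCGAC
Fbxo31 circ_006110: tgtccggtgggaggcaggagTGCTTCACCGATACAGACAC

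The first 2 Ubr7 circles share the capitals because both open at exon 2, and they differ in the exon that closes them. The smaller of them, chr12:103999581-104000191 on the plus strand of mm9, is printed whole because it is short, with exon 2 (134 bases) in lower case and exon 3 (61 bases) in capitals.
Ubr7 circ_001233: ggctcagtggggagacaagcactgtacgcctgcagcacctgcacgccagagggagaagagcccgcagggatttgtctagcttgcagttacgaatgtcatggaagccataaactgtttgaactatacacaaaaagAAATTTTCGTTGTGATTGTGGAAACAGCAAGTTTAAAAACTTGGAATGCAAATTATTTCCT
The other 2 Ubr7 circles lie at chr12:103999581-104008153 (exons 2 to 9 of 11) and chr12:104006280-104009490 (exons 7 to 10). Herc2 circ_005934 (exons 11 to 12 of 93) lies at chr7:63352747-63353856 and circ_005935 (exons 13 to 16) at chr7:63355449-63361902, both on the plus strand, and Herc3 circ_005506 (exons 10 to 15 of 25) lies at chr6:58818636-58826875 on the plus strand. Fbxo31 circ_006109 (exons 7 to 8 of 9) lies at chr8:124078005-124079259 and circ_006110 (exons 3 to 5) at chr8:124082920-124084362, both on the minus strand. Fbxo10 circ_004597 (exons 4 to 5 of 11) lies at chr4:45061312-45064574 and Usp3 circ_006718 (exons 4 to 8 of 15) at chr9:66387869-66395762, also on the minus strand. These 10 circles hold coding exons only.

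Of the 131 circRNAs, 129 started and ended at annotated exon ends, and all 129 were flanked by the splice dinucleotides AG upstream and GT downstream, as were 5073 of the 5076 such circRNAs in the whole table. The exceptions in exon structure were one circRNA each of Rnf121 and Usp4. The median counted length was 420 bases (467 over all circRNAs), with a range of 147 to 2136 bases. Circles of 2 or 3 exons made up 86 of the 129 (66.7%, beside 50.8% of all), and 9 held a single exon. Exon 2 was the opening exon of 46 (35.7%, beside 28.7% of all), and exon 1 opened none. The annotated start codon lay within 21 of them. Among the 106 circles made only of coding sequence, 40 had an exonic length that is a multiple of 3 (37.7%, beside 38.8% of all coding circles).

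Counted sequence was not exonic throughout. For some circRNAs the counted length exceeded that of the exons by the length of whole introns, among them Fbxo21 circ_004813, in which an intron of 708 bases made up most of the 1160 counted bases, Fbxo44 circ_004469 (introns of 113 and 89 bases), and Herc2 circ_005935 (91 bases). The study detected no intron in the circRNAs that it cloned, and it proposes that intronic reads may come from lariats. Levels of such entries may therefore differ from those of the circle. Reads of overlapping circRNAs were also not separated. In all 40 pairs in which the exons of one circle lie within another circle of the same gene, the inner circle had no more reads than the outer one in any library, as in 1825 of 1825 such pairs in the whole table. Values of overlapping circles therefore rest in part on the same reads, and they are not independent measurements.

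Libraries held between 2962787 and 8015311 counts, of which 94.7 to 98.2% fell on 27 high-count entries that are no members. Whether these entries are circular RNAs was not tested. They left 83572 (PP replicate 3) to 287983 (N replicate 2) counts for all other entries. A count of 3, used as a floor for detection, corresponded to 0.340 CPM in DP replicate 1 and 1.39 CPM in PP replicate 3, where CPM are counts scaled to the effective library size (edgeR TMM), and floors cover counting error only. PP replicate 3 and N replicate 1 were the shallowest and stood apart in several of the results below, which are given with and without them. CircRNAs of genes that mark the cell types fell and rose with the labels. Summed over the 17 circRNAs of 6 PP marker genes, levels were 372 to 490 CPM in PP, 161 to 199 in DP and 63.4 to 82.5 in N. The 19 circRNAs of 7 neuronal genes summed to 8.09 to 19.1 CPM in PP, 58.3 to 83.0 in DP and 322 to 404 in N, and the 3 circRNAs of DP genes were highest in DP (57.0 to 63.7 CPM). Marker genes of endothelial cells, microglia and pericytes had no circRNA in the table, and of the interneuron markers only Erbb4 had any (0 to 2.32 CPM in PP, 3.43 to 6.75 in N).

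The median level of the ubiquitin ligase and deubiquitinase circRNAs was low and near that of all circRNAs. Mean levels over the 9 libraries ranged from 0.252 CPM (Fbxo7 circ_000693) to 14.7 CPM (Usp10 circ_006104), with a median of 2.91 CPM beside 3.30 CPM over all circRNAs. At least 1 read was present in every library for 114 of the 131 (87.0%, beside 82.3% of all). Their summed level was 508 ± 22.0 CPM in PP, 503 ± 17.4 in DP and 544 ± 29.8 in N (SD, n = 3). The low count filter retained 111 of them, and the 20 that it removed had mean levels of at most 1.20 CPM, including all 3 circRNAs of Usp13, all 3 of Rnf150 and both of Fbxo16.

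The most abundant circRNA had similar levels in the 3 cell types. Usp10, whose product deubiquitinates p53 among other proteins, gave a circle of exons 2 to 4 with 16.4, 13.3 and 12.1 CPM in PP, 13.4, 16.7 and 14.5 in DP and 17.7, 12.6 and 16.0 in N, and the ranges of the groups overlapped. This circle also lies within the longer annotated gene model Gm20388 on the same strand. N and PP did not differ by more than their spread, with a log2 FC of 0.13 ± 0.29 (N over PP, ± SE, edgeR). Among the 5 most abundant were also Fbxo21 circ_004813, most of whose counted bases are intronic, and Usp3 circ_006719. At the other end, Fbxw11 circ_000909 and Usp13 circ_004045 had means of 0.411 and 0.366 CPM, close to the floor of most libraries. Both were removed by the filter and were not tested.

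To ask which of these circRNAs change along the lineage, each pair of cell types was compared in one edgeR quasi-likelihood model over all 5281 entries, with Benjamini-Hochberg adjustment over the 4406 that passed the filter. The study calls the replicates biological, but whether equal replicate numbers share embryos was not stated. Between PP and DP, 0 of 111 passed an adjusted p of 0.05, where 1.86% of all tested circRNAs did. At an unadjusted p under 0.05 there were 3 (11.4% of all tested circRNAs), all lower in DP, namely Fbxl17 circ_002776, Usp24 circ_004229 and Rnf130 circ_000944, and DESeq2 also called 0. Between DP and N, 8 of 111 (7.21%) passed, 5 higher (9.03% of all tested circRNAs were) and 3 lower in N (9.80% of all), beside 18.8% of all tested circRNAs in either direction. The log2 FC of N over DP was above 0 for 62 of 111, and for 48.8% of all. Between PP and N, 11 of 111 (9.91%) passed, 8 higher (13.6% of all) and 3 lower in N (14.4% of all), beside 28.0% of all in either direction. The share called was below that of all circRNAs in each comparison, and whether the shares differ was not tested. In the same way, PP and N did not overlap for 26 of 111 (23.4%, beside 36.5% of all), and the median log2 FC of N over PP was 0.08 (-0.10 for all tested circRNAs).

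**Figure D1:**
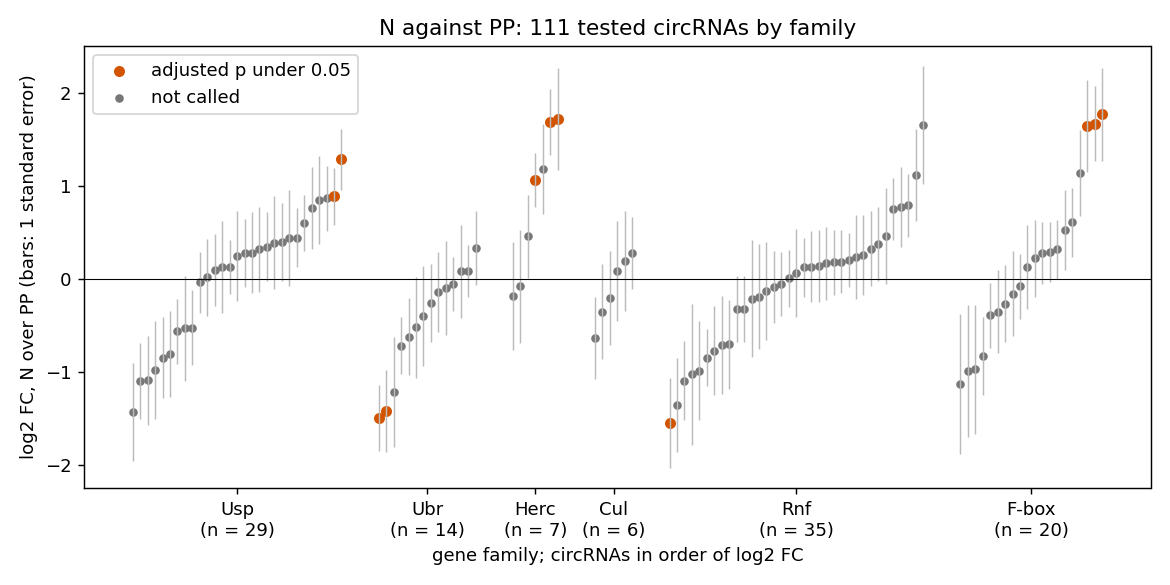
log2 FC of N over PP (vertical axis, bars of 1 SE from edgeR) for the 111 tested circRNAs, ordered by value within each gene family on the horizontal axis, with circRNAs past an adjusted p of 0.05 in orange. Called circRNAs comprise 3 of 7 in Herc, 3 of 20 in F-box, 2 of 29 in Usp, 2 of 14 in Ubr, 1 of 35 in Rnf and 0 of 6 in Cul, beside 28.0% of all tested circRNAs.

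The plot of log2 FCs shows the calls in N against PP by family. Higher in N were 3 of 7 Herc, 3 of 20 F-box and 2 of 29 Usp circRNAs, beside 13.6% of all tested circRNAs. Lower in N were 2 of 14 Ubr and 1 of 35 Rnf circRNAs, beside 14.4% of all, and 0 of 6 Cul circRNAs passed. The F-box and Ubr shares were thus close to those of all circRNAs, and whether the families differ in their calls was not tested. The scaling of the libraries bears on all of these calls. With total counts in place of TMM, which places the 27 high-count entries in the denominator, 0 of 111 passed in any comparison, with the smallest adjusted p at 0.107 (N against DP) and 0.083 (N against PP), and the median log2 FC of all circRNAs moved to -0.37 in both, while 407 and 649 of all circRNAs still passed. All 8 and 11 called circRNAs kept their direction.

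Of the 29 tested Usp circRNAs, the 2 that changed were higher in N than in PP (6.90%, beside 13.6% of all). Usp49, whose product removes ubiquitin from histone H2B, gave a circle of exons 2 to 3 that contains the start codon and overlaps Med20 on the same strand. It had 5.71, 6.63 and 8.37 CPM in PP, 8.95, 8.14 and 11.6 in DP and 22.6, 12.3 and 15.8 in N. All N libraries lay above all PP and DP libraries, and the log2 FC of N over PP was 1.29 ± 0.33 (edgeR adjusted p = 0.00925), whereas N over DP missed the threshold (0.80 ± 0.31, adjusted p = 0.0961). Usp3 encodes another histone deubiquitinase, and its circ_006718 (exons 4 to 8) had 9.35, 6.15 and 5.11 CPM in PP, 9.17, 10.4 and 9.44 in DP and 11.1, 12.6 and 14.7 in N. The N libraries again lay above the others, with a log2 FC over PP of 0.89 ± 0.31 (edgeR adjusted p = 0.0441), and the call was kept in 3 of the 9 fits that leave out one library. The 2 other Usp3 circles, circ_006719 (exons 2 to 8) and circ_006720 (exons 2 to 3), had a log2 FC of 0.60 ± 0.30 and 0.28 ± 0.36.

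Other Usp genes with several circles gave values without a call. The 4 circles of Usp54 had log2 FCs of N over PP from -1.43 to -0.85, with adjusted p of 0.057 for circ_001796 and 0.059 for circ_001797 (edgeR). For circ_001797, the highest of them, levels were 3.38, 3.72 and 2.32 CPM in PP, 1.70, 2.34 and 1.99 in DP and 1.77, 1.86 and 0.980 in N, so that PP and N did not overlap. The 3 circles of Usp9x, a deubiquitinase gene on the X chromosome, ranged from 0.02 to 0.45, those of Usp34 from 0.10 to 0.28 and those of Usp4 from 0.35 to 0.87.

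Ubr7 circRNAs were lower in neurons. Ubr7 encodes a protein with a UBR box and a PHD finger, and its largest circle, circ_001234 (exons 2 to 9), had 8.31, 8.25 and 4.18 CPM in PP, 7.93, 6.66 and 6.96 in DP and 2.22, 3.02 and 2.12 in N. All progenitor libraries lay above all N libraries, and the log2 FC of N was -1.50 ± 0.36 over PP (edgeR adjusted p = 0.00573) and -1.50 ± 0.34 over DP (adjusted p = 0.00623), called in 9 of 9 fits that leave out one library in both comparisons. For circ_001235 (exons 7 to 10), levels were 5.19, 4.69 and 1.39 CPM in PP, 4.64, 4.19 and 3.73 in DP and 1.33, 1.86 and 1.14 in N. PP replicate 3 lay within the N range, and the log2 FC was -1.42 ± 0.44 over PP and -1.47 ± 0.41 over DP (edgeR adjusted p = 0.026 and 0.0223), each called in 6 of 9 such fits. The smallest circle, circ_001233 (exons 2 to 3, printed whole above), had 1.04, 2.10 and 1.39 CPM in PP, 1.93, 1.97 and 2.36 in DP and 0, 1.05 and 0.490 in N. It passed against DP (-1.59 ± 0.52, edgeR adjusted p = 0.0459, 4 of 9 fits) and not against PP (-1.21 ± 0.59, adjusted p = 0.151), and N replicate 1, at 0, was under a floor of 1.33 CPM. Circles circ_001233 and circ_001235 share no exon, whereas each shares exons, and hence reads, with circ_001234.

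**Figure D2:**
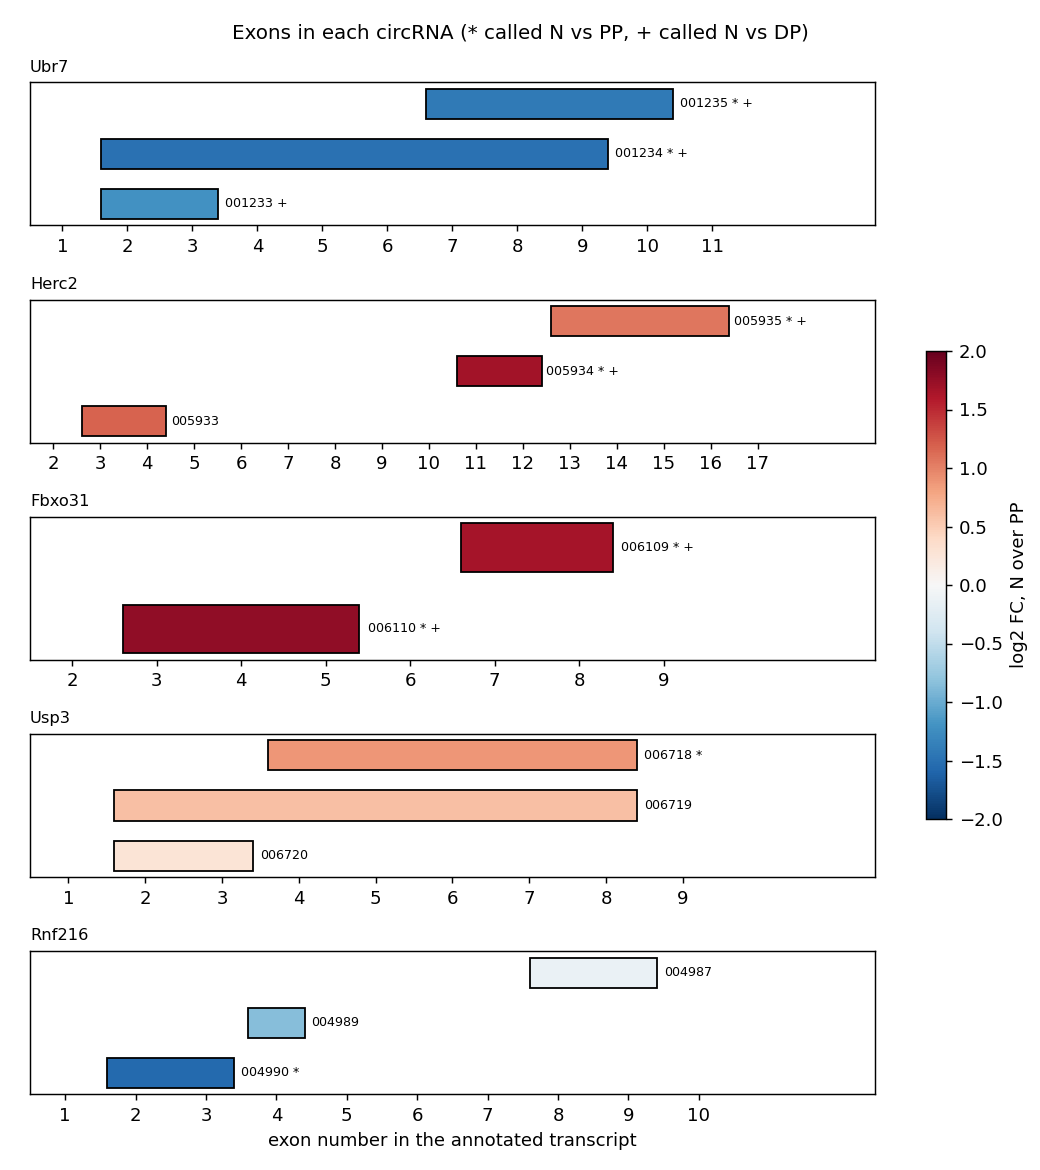
Exons contained in each circRNA of Ubr7, Herc2, Fbxo31, Usp3 and Rnf216 (horizontal axis, exon number in the annotated transcript, one bar per circRNA), coloured by log2 FC of N over PP from edgeR, with an asterisk for a call against PP and a plus for a call against DP. The 3 Ubr7 circles are blue (-1.50 to -1.21), the 3 Herc2 and 2 Fbxo31 circles are red, and the 3 Rnf216 circles range from -1.55 to -0.13.

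No other Ubr gene had a call. Across the 3 circles of Ubr3 the log2 FC of N over PP ranged from -0.62 to -0.10.

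In N, 3 of the 7 Herc circRNAs were higher than in PP and in DP (13.6% and 9.03% of all were), namely 2 of Herc2 and 1 of Herc3. Herc2 encodes a giant HECT ligase, and its circ_005934 (exons 11 to 12) had 1.82, 3.88 and 2.32 CPM in PP, 4.42, 4.56 and 4.84 in DP and 10.6, 9.66 and 7.35 in N. The 3 groups did not overlap, and the log2 FC of N was 1.69 ± 0.35 over PP (edgeR adjusted p = 0.00244, 9 of 9 fits without a library) and 0.98 ± 0.31 over DP (adjusted p = 0.0419, 3 of 9). The neighbouring circ_005935 (exons 13 to 16) had 6.75, 5.66 and 6.97 CPM in PP, 7.70, 6.29 and 8.20 in DP and 16.0, 12.1 and 12.6 in N. Its log2 FC was 1.06 ± 0.29 over PP (edgeR adjusted p = 0.0137, 8 of 9) and 0.85 ± 0.28 over DP (adjusted p = 0.0442, 1 of 9). These 2 circles share no exon. The third Herc2 circle, circ_005933 (exons 3 to 4), shares none with either and had a log2 FC of 1.18 ± 0.48 over PP without passing the test (adjusted p = 0.09).

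Herc3 circ_005506, from a smaller member of the family, had 1.30, 1.13 and 0.930 CPM in PP, 0.566, 1.36 and 0.870 in DP and 0.886, 5.47 and 3.76 in N. N replicates 2 and 3 lay above all progenitor libraries, whereas N replicate 1 lay among them. With 2 reads each, N replicate 1 and PP replicate 3 were under their floors of 1.33 and 1.39 CPM. The log2 FC of N was 2.02 ± 0.49 over DP (edgeR adjusted p = 0.00928) and 1.72 ± 0.55 over PP (adjusted p = 0.0294), and the latter was called in 5 of 9 fits without a library. Summed over the 7 Herc circRNAs, levels were 21.6 ± 3.44 CPM in PP, 24.9 ± 1.35 in DP and 42.2 ± 7.24 in N (SD, n = 3), given as a description because single circles were tested. Herc1 circ_006715 was at 2.22 CPM in N replicate 1 but at 13.6 and 8.66 CPM in N replicates 2 and 3, and Herc4 gave log2 FCs of -0.18 and -0.08.

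Cullin circRNAs were not called in any comparison, and N replicate 1 stood apart in them. Summed over the 7 circRNAs of Cul1, Cul3, Cul4a and Cul5, levels were 25.2, 22.5 and 14.9 CPM in PP, 24.5, 29.2 and 23.7 in DP and 4.88, 26.1 and 22.5 in N. Cul1, the scaffold of the SCF complex, gave circ_005466 (exons 2 to 3) with 1 read in N replicate 1 (0.443 CPM) beside 6.75 and 6.04 CPM in the other N libraries. Without N replicate 1 the log2 FC of N over PP for this circle was 0.03 ± 0.35 in place of -0.35 ± 0.51, and neither passed the test. These values were chosen for description after they had been seen.

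Among the Rnf genes, Rnf216 was the only one with a call. Rnf216 encodes a ligase of the RING-between-RING type, and its circ_004990 (exons 2 to 3, with the start codon) had 2.08, 2.59 and 1.39 CPM in PP, 1.93, 1.85 and 1.74 in DP and 1.33, 0.698 and 0.490 in N. All N libraries lay below all progenitor libraries in CPM, but PP replicate 3 and N replicates 1 and 3 had 3 reads each, at the floor. PP replicate 3 and N replicate 1 therefore differed only by the scaling of the libraries. The log2 FC of N was -1.55 ± 0.49 over PP (edgeR adjusted p = 0.0275, 5 of 9 fits without a library) and -1.32 ± 0.45 over DP (adjusted p = 0.0578). The other Rnf216 circles share no exon with it and had log2 FCs over PP of -0.85 ± 0.31 for circ_004989 (exon 4) and -0.13 ± 0.53 for circ_004987 (exons 8 to 9).

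The 3 circles of Rnf130 had log2 FCs of -0.77 to -0.46 for DP over PP, 0.63 to 0.71 for N over DP and -0.06 to 0.17 for N over PP. None passed with every library, whereas all 3 passed in N against DP without PP replicate 3 and N replicate 1 (log2 FCs of 0.90 to 0.91, edgeR adjusted p of 0.00151 to 0.00351). For N over PP, the log2 FCs of the circles of Rnf214 were 0.37 to 0.79 and those of the 2 tested circles of Rnf13 were -0.71 and -0.19. The 3 circles of Rnf150 were too low to be tested. For circ_006330 (exons 5 to 6) the mean was 0.14 ± 0.13 CPM in PP, 0.28 ± 0.08 in DP and 1.25 ± 0.48 in N (SD, n = 3).

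Of the 20 tested circRNAs of Fbxo, Fbxw and Fbxl genes, the 3 that changed were higher in N than in PP. This share was close to that of all tested circRNAs, of which 13.6% were higher. Fbxo31, a substrate receptor known for cyclin D1, gave circ_006109 (exons 7 to 8) with 2.08, 1.94 and 1.86 CPM in PP, 1.81, 1.73 and 1.61 in DP and 10.2, 4.07 and 6.04 in N. The 6 progenitor libraries lay close together and below all N libraries, with a log2 FC of N of 1.67 ± 0.40 over PP (edgeR adjusted p = 0.00637) and 1.86 ± 0.37 over DP (adjusted p = 0.00224), called in 9 of 9 fits without a library in both. The second circle, circ_006110 (exons 3 to 5), shares no exon with the first and had 1.04, 2.26 and 2.32 CPM in PP, 1.59, 2.34 and 2.61 in DP and 12.4, 4.30 and 4.57 in N. The log2 FC was 1.77 ± 0.50 over PP (edgeR adjusted p = 0.0154) and 1.55 ± 0.44 over DP (adjusted p = 0.0227), called in 8 and 6 of 9 such fits, and in both circles N replicate 1 was the highest N library.

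Fbxo10 circ_004597, from the gene of a receptor known for BCL2, had 1.04, 0.647 and 0.930 CPM in PP, 1.36, 1.73 and 1.24 in DP and 3.10, 1.75 and 3.43 in N. The 3 groups did not overlap, although the PP values were near the floor, and the log2 FC of N was 1.64 ± 0.49 over PP (edgeR adjusted p = 0.0218, 7 of 9) and 0.87 ± 0.39 over DP (adjusted p = 0.162).

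**Figure D3:**
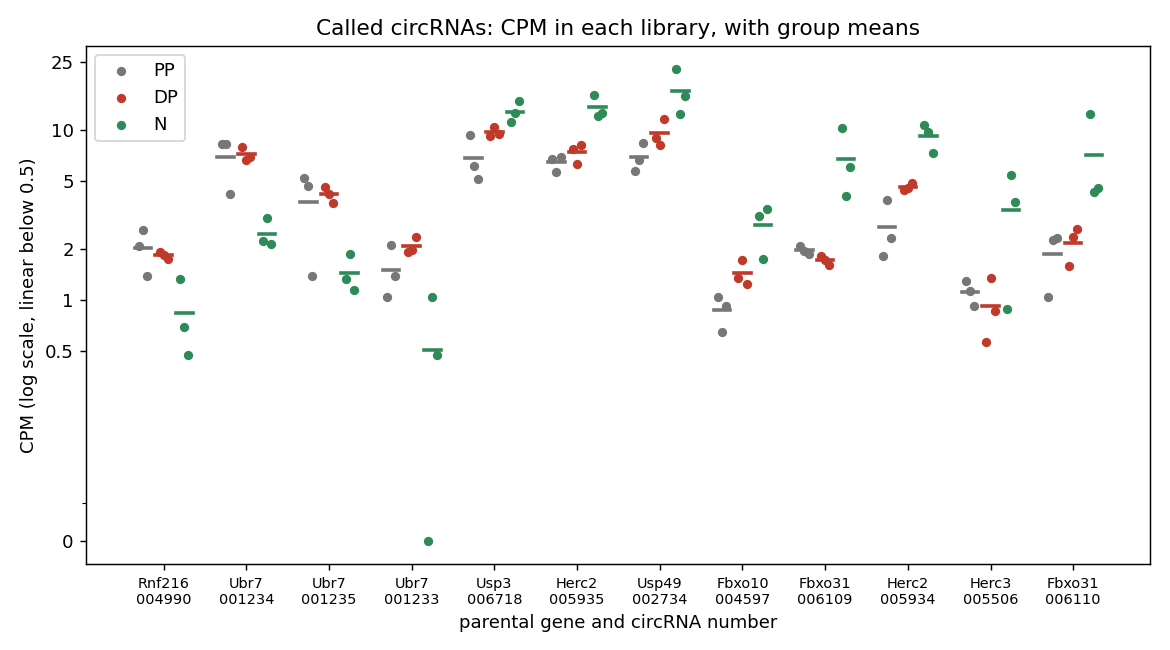
CPM (vertical axis, logarithmic above 0.5 and linear below) of the 12 circRNAs called between N and a progenitor group, in each library of PP (grey), DP (red) and N (green), with a bar at each group mean. N lies above both progenitor groups in the 8 circRNAs on the right, apart from N replicate 1 of Herc3, and below in the 4 on the left, apart from PP replicate 3 for Ubr7 circ_001235 and PP replicate 1 for Ubr7 circ_001233.

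F-box circRNAs also contained the clearest single-library values. Fbxw4, encoding a receptor with WD40 repeats, gave 3 overlapping circles that were at 17.7 to 18.1 CPM in PP replicate 3 (38 to 39 reads) and at 1.62 to 2.08 CPM in PP replicates 1 and 2. Their log2 FCs of N over PP were between -1.13 and -0.97 in the fit of all libraries and between 0.67 and 0.68 without PP replicate 3, and neither passed the test. A like value was seen for Rnf169 circ_005636 with 3.12, 0.809 and 13.5 CPM in PP. Fbxo21 circ_004813, most of whose counted bases are intronic, had 10.6, 7.60 and 19.99 CPM in PP, 10.2, 11.3 and 11.1 in DP and 24.8, 13.6 and 18.8 in N. Its log2 FC was 0.61 ± 0.37 (edgeR adjusted p = 0.256) with all libraries and 1.05 ± 0.31 without PP replicate 3 (adjusted p = 0.0144). These were named after their values had been seen. The 3 circles of Fbxw8 (log2 FCs of 0.28 to 0.32) and of Fbxo11 (-0.35 to 0.22) were not called.

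**Figure D4:**
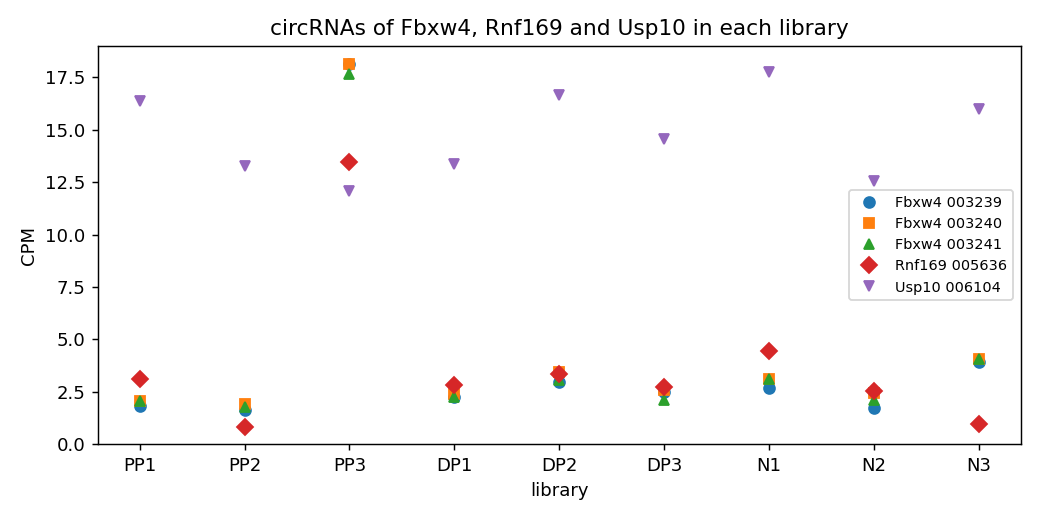
CPM (vertical axis) of the 3 overlapping Fbxw4 circRNAs, of Rnf169 circ_005636 and, for comparison, of the abundant Usp10 circ_006104 in each of the 9 libraries. The Fbxw4 circles reach 17.7 to 18.1 CPM in PP replicate 3, whereas Usp10 is at 12.1 CPM there.

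Circles of one gene were next compared with each other. Of 78 circRNAs that could be tested against the other circles of their gene (edgeR diffSpliceDGE, adjusted over 3058 in the whole table), 0 passed in any comparison and 0 had an unadjusted p under 0.05, where 2 of 3058 passed overall in N against PP. Among pairs of circles of one gene, 40 were nested, 10 shared part of their exons and 45 shared none. Circles that share reads are drawn to like values, so the lack of calls cannot show that circles of one gene change alike. Of 39 tested pairs of circles that share no exon, in 19 genes, 31 had a log2 FC of N over PP of the same sign. By fold change alone, with 1.5-fold in either direction as the limit (the criterion of the study) and no test, 68 of 131 (51.9%) changed in neither step of the lineage, beside 39.7% of all circRNAs, and 0 rose and then fell, beside 1.53%.

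Leaving out PP replicate 3 and N replicate 1 together raised the number of calls. Of the 122 then tested, 22 (18%) passed in N against DP and 26 (21.3%) in N against PP, beside 33.9% and 42.2% of all, and these included all 8 and all 11 of the circRNAs called with every library. Called against PP in this fit and not with every library were, among others, Usp54 circ_001797 and circ_001798 and Rnf216 circ_004989, all lower in N, and Herc1 circ_006715, Herc2 circ_005933 and Usp3 circ_006719, all higher in N. In DP against PP, 2 passed, Rnf145 circ_000930 and Rnf130 circ_000944, both lower in DP.

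**Figure D5:**
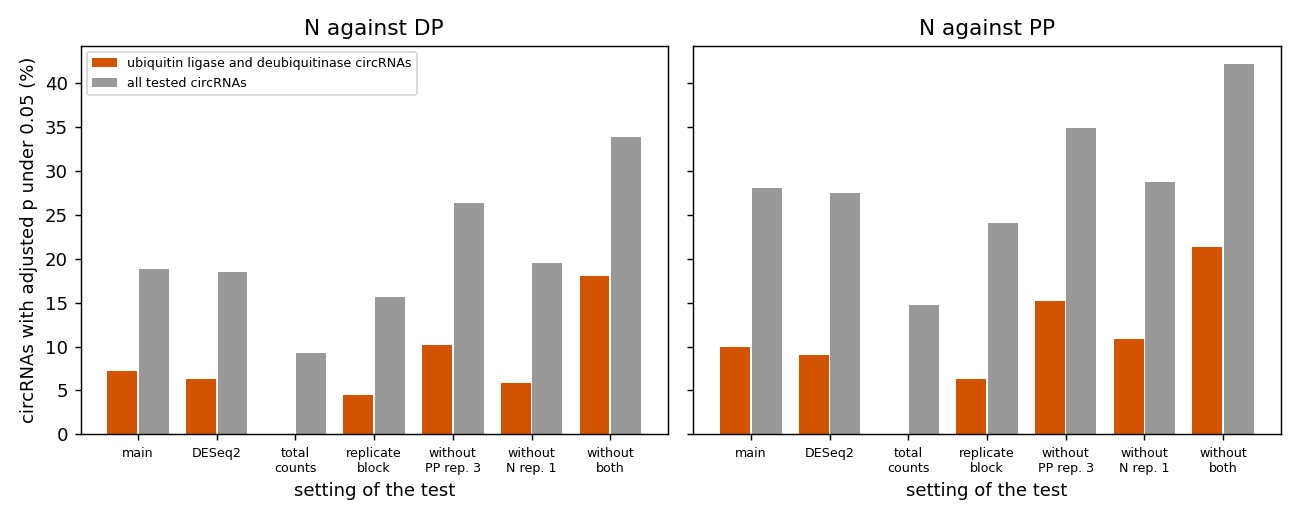
Share of circRNAs with an adjusted p under 0.05 (vertical axis, %) among the ubiquitin ligase and deubiquitinase circRNAs (orange) and among all tested circRNAs (grey), for N against DP and N against PP, by setting of the test on the horizontal axis. The orange bar is below the grey one in each setting, at 9.91% beside 28.0% in the main fit for N against PP and at 0 beside 14.7% with total counts.

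The rest of the ubiquitin pathway was represented by 150 circRNAs of 65 genes from a list of activating and conjugating enzymes, further ligases, subunits of the anaphase-promoting complex and of cullin ligases, and other deubiquitinases. Of 142 tested, 1 passed in DP against PP (0.704%, beside 1.86% of all tested circRNAs), 7 in N against DP (4.93%, beside 18.8%) and 10 in N against PP (7.04%, beside 28.0%), of which 5 were higher and 5 lower in N. Hecw1 circ_001568, from a HECT ligase gene, had 0 reads in all PP libraries, 1.36, 0.864 and 1.74 CPM in DP and 6.20, 10.9 and 11.4 in N. Set against 3 reads over the PP group (0.246 CPM), it was at least 38.7-fold higher in N and at least 5.36-fold higher in DP (edgeR adjusted p = 1.77e-05 and 0.0249). The others higher in N were Znrf1 circ_006081 (log2 FC 1.61 ± 0.43), Cblb circ_002408 (3.12, 4.04 and 4.18 CPM in PP, 8.86, 5.47 and 8.82 in N), both from RING ligase genes, and 2 circles of Dcaf5, a receptor subunit of cullin ligases (1.55 ± 0.43 and 1.21 ± 0.41).

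Lower in N were 2 circles of Nedd4, a HECT ligase gene, with circ_006742 at 52.5, 53.2 and 52.1 CPM in PP, 40.1, 41.0 and 35.0 in DP and 24.4, 17.8 and 16.7 in N (log2 FC of N over PP -1.44 ± 0.29, edgeR adjusted p = 0.00178). The second, circ_006741, fell alongside (-1.52 ± 0.30, adjusted p = 0.00164). Ccnf circ_002508, from the gene of cyclin F, an F-box protein of dividing cells, had a log2 FC of -2.13 ± 0.54, and Atxn3 circ_001229, from a deubiquitinase gene, one of -1.39 ± 0.48. Brca1 circ_000741 had 8, 10 and 7 reads in PP and 1, 1 and 0 in N.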

How the data were processed

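Whole-number counts per circRNA and library were deposited without normalization by the authors, who aligned strand-specific reads of RNase R treated RNA to mm9, predicted circRNAs from unmapped reads with find_circ and counted reads with featureCounts (Subread 1.6.0 per the labels). Parental genes came from the study's list (40 circRNAs) or GENCODE vM1 on the same build (91). Libraries were grouped by the reporters in the labels. CPM used TMM effective sizes, and RPKM are CPM per kilobase of counted length. Counts were tested with edgeR 4.0.16 in R 4.3.3 (filterByExpr, quasi-likelihood test, all 9 libraries, no block, adjusted p threshold 0.05), tested on simulated data, with DESeq2 1.42.0 as an alternative. Other alternatives changed scaling, filter, block, fold threshold and libraries. Named are circRNAs with the largest called log2 FCs (up to 10 per direction), the 5 highest and 3 lowest levels, genes with at least 3 circles, and of other ubiquitin circRNAs up to 5 per direction. A few circRNAs that this rule names are not reported here. Members, gene lists and alternatives were chosen with earlier results of these data known. Junctions were read from the mm9 genome, after adding 1 to the deposited starts, and figures used matplotlib 3.10.9.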

Additional observations from a re-analysis of the deposited data

How the results depend on the processing

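Called members numbered 0 in DP against PP, 8 in N against DP and 11 in N against PP, beside 1.86%, 18.8% and 28.0% of all tested circRNAs. In that order of N against DP and N against PP, counts were 0 and 0 with total counts, 3 and 5 with an FC of 1.5 tested, 1 and 2 with at least 10 counts in every library (19 members tested), and 22 and 26 without PP replicate 3 and N replicate 1, where DP against PP gave 2. With only the cell types of the contrast, N against PP gave 5 (5.75%, beside 20.3% of all). Leaving out one library gave 2 to 12 in N against DP and 6 to 18 in N against PP. The lowest counts in N against DP were 2 without DP replicate 1, 3 without DP replicate 2, 4 without N replicate 3 and 5 without DP replicate 3, and in N against PP they were 6 without N replicate 3 and 7 without PP replicate 2, while 18 came without PP replicate 3. With a replicate block, 5 and 7 were called. Samples of equal number did not deviate together (mean correlation -0.03, pairs from -0.24 to 0.28, beside a mean of 0.02 for unequal numbers), and whether equal numbers share embryos was not stated. DESeq2 gave 0, 7 and 10, beside 2.68%, 18.5% and 27.6% of all. RLE size factors gave the same 0, 8 and 11, beside 1.72%, 18.6% and 27.8% of all.

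For other ubiquitin circRNAs (1, 7 and 10 called), DP against PP gave 0 with total counts, with at least 10 counts, with a replicate block and with only the cell types of the contrast, 0 to 2 with one library left out, and 6 without PP replicate 3 and N replicate 1. N against DP gave 4 with an FC of 1.5 tested, 3 with total counts, 3 with at least 10 counts, 3 to 11 with one library left out (3 without N replicate 3, 4 without DP replicate 2, 11 without PP replicate 3) and 18 without both shallow libraries. N against PP gave 5 with total counts, 3 with at least 10 counts, 4 with only the cell types of the contrast, 8 to 16 with one library left out (16 without N replicate 1) and 31 without both. The cause of these changes was not tested. The within-gene count stayed at 0 in its alternatives, and members without change by FC stayed within 1.5 times of 68. Of 3467 values of 68 single circRNAs under an alternative, 156 lost the call and 38 gained one. The log2 FC changed sign in 182, 0 of which were called in either fit. In N over PP they include the Fbxw4 circles (0.67 to 0.68) and Rnf169 circ_005636 (from -1.03 to 0.40) without PP replicate 3, and Cul1 circ_005466 (from -0.35 to 0.03) without N replicate 1.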

Other observations

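Subunits of the anaphase-promoting complex, the ligase that ends mitosis, gave 11 tested circRNAs of 6 genes. Their median log2 FC of N over PP was -0.74 (-0.10 over all tested circRNAs), 0 were called by edgeR (28.0% of all were), 4 had an unadjusted p under 0.05 (37.7% of all tested circRNAs did), and PP and N did not overlap for 5 (36.5% of all). Activating and conjugating enzymes gave 11 tested circRNAs of 7 genes with a median of 0.30, of which 0 were called and 1 had an unadjusted p under 0.05.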
